A study of Mus musculus with 6 samples.

Results

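The transcripts described are those of the coactivators YAP and TAZ, the 4 TEAD transcription factors and 4 genes widely used as readouts of their activity, in mouse myoblasts in which Psat1, an enzyme of serine synthesis, was targeted. The 10 genes were taken by symbol from a deposited table of 25220 genes: Yap1, Wwtr1 (which encodes TAZ), Tead1, Tead2, Tead3, Tead4, Ankrd1, Amotl2, Ccn1 (formerly Cyr61) and Ccn2 (formerly Ctgf). All 10 were listed in the table, and all 10 passed the filter on low values. Poly(A) RNA came from primary myoblasts of hindlimb muscle, grown in medium with bFGF and horse serum. The 3 control libraries (Ctrl) had the genotype Pax7 +/+; Psat1fl/fl, with floxed Psat1 and no Cre, and the 3 Psat1 cKO libraries had Pax7 CRE+/-;Psat1fl/fl, with the same floxed alleles and Cre at a Pax7 allele. Both groups therefore carried floxed Psat1, and the effect of Cre at the Pax7 allele cannot be told apart from that of the targeting of Psat1. The labels give no age, do not say whether the Cre was inducible or induced, and do not say whether the replicates came from separate animals, so p-values measure the spread between these libraries.

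YAP and TAZ do not bind DNA themselves. When the Hippo kinases MST and LATS phosphorylate them they are held in the cytoplasm or degraded, and when that brake is released, for instance in spread cells on a stiff matrix, they enter the nucleus and bind TEAD factors at the target genes. This control acts mainly on the proteins, so the level of Yap1 or Wwtr1 mRNA does not report how much YAP or TAZ is nuclear. In satellite cells and myoblasts, YAP is known to favour proliferation over differentiation, and TEAD sites, first described as the muscle M-CAT element, are found in promoters of many muscle genes.

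Values are RPKM, reads scaled to transcript length and library depth, so that levels of different genes can be set side by side. Group differences are log2 fold changes of RPKM + 0.5 from limma, Psat1 cKO over Ctrl, and a gene is said to have risen or fallen where the p adjusted over all 12251 genes tested was under 0.05. That rule called 220 genes as risen (1.8%) and 60 as fallen (0.49%). The steps between low RPKM values put the depth between 19600000 and 43050000 reads, lowest in Psat1 cKO 3. Psat1 stood at 95.1 ± 4.49 RPKM in Ctrl and 70.0 ± 5.81 in Psat1 cKO (SD, n = 3 each). The adjusted p from limma was 0.0225, and it was not under 0.05 in 5 of 6 fits with a library removed. Reads of the gene were thus lower but still abundant. RPKM is given per gene, so how many of them came from alleles cut by Cre cannot be told. Levels of myoblast markers differed widely. Myod1 stood at 687 ± 80.5 and 606 ± 32.3 RPKM and Des at 377 ± 16.5 and 340 ± 27.8 RPKM. Pax7 stood at 26.5 ± 0.685 and 17.4 ± 1.39 RPKM and Myf5 at 12.3 ± 2.43 and 5.30 ± 0.707 RPKM. Differentiation markers were abundant too, such as Myog at 499 ± 98.1 and 424 ± 53.4 RPKM and Mylpf at 1489 ± 222 and 1174 ± 152 RPKM. Sex was not balanced: transcripts of Xist marked 1 Ctrl library (replicate 1) and 2 of the Psat1 cKO group (replicates 1 and 2), and Y-linked transcripts marked the other 3.

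Of the 10 genes, 1 rose and 0 fell, beside 1.8% and 0.49% of all genes (2.29% in either direction). Ccn2, which encodes a secreted matricellular protein, was 2.41 times its control level, with no overlap of the groups. The other 9 had mean levels in Psat1 cKO between 95.6% and 113% of the control mean, their groups overlapped, and their 95% intervals lay within 0.839-fold and 1.27-fold. The median log2 fold change of the 10 was 0.0078, beside -0.011 over all genes tested. Groups that did not overlap, with Psat1 cKO higher, were found for 1 of the 10 genes and for 10% of all genes tested. Ccn1 had an unadjusted p of 0.0374 from limma, and with Ccn2 it makes 2 members higher and 0 lower at an unadjusted p under 0.05, beside 926 and 836 of all genes.

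**Figure D1:**
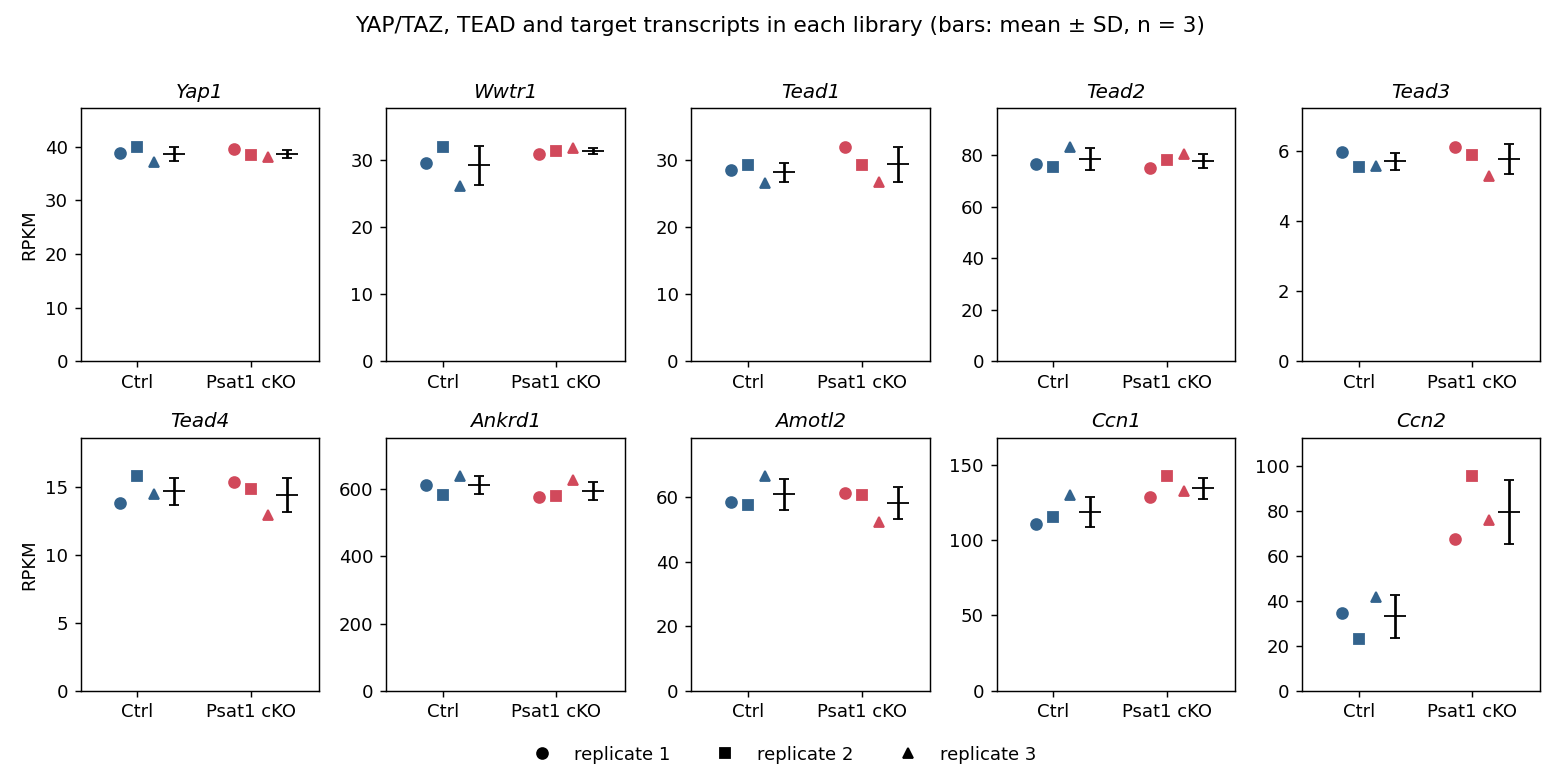
RPKM of each gene in the 3 Ctrl libraries (blue) and the 3 Psat1 cKO libraries (red), with the marker shape giving the replicate number and the bar the mean ± SD; each axis starts at 0 and has its own scale. Ccn2 is the gene whose red points, between 67.4 and 95.4 RPKM, all lie above the blue points, between 22.9 and 41.8 RPKM.

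Both coactivators were expressed at like levels in both genotypes. Yap1 (Entrez 22601, GRCm38 chromosome 9, 7931999 to 8004638) read 38.8, 40.0 and 37.2 RPKM in Ctrl 1 to 3 and 39.5, 38.4 and 38.1 RPKM in Psat1 cKO 1 to 3. All 6 values fell in a narrow band, and no library stood apart. The log2 fold change came to 0.0015 ± 0.05 (SE) with a 95% interval from -0.11 to 0.11 (adjusted p = 0.993). Wwtr1 (Entrez 97064, chromosome 3, 57455644 to 57575910) read 29.5, 32.0 and 26.2 RPKM in Ctrl and 30.9, 31.3 and 31.8 RPKM in Psat1 cKO. Its controls spread more widely than its Psat1 cKO libraries and enclosed them, and Ctrl 3 was lowest. The log2 fold change was 0.10 with an interval from -0.06 to 0.27 (adjusted p = 0.572). Wwtr1 made up 43.0% ± 1.59 of the summed RPKM of both coactivators in Ctrl and 44.8% ± 0.828 in Psat1 cKO (exact permutation test, two-sided, p = 0.2, where 0.1 is the smallest p that 3 against 3 libraries allow).

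The 4 TEAD genes encode closely related DNA-binding proteins that recognise the same short element, and all 4 were expressed. Tead2 (Entrez 21677, chromosome 7, 45215792 to 45233468) was the most abundant, with 76.8, 75.3 and 83.3 RPKM in Ctrl and 75.2, 78.1 and 80.6 RPKM in Psat1 cKO. Tead1 (Entrez 21676, chromosome 7, 112679356 to 112906784), the founding member of the family, read 28.5, 29.2 and 26.6 RPKM in Ctrl and 31.9, 29.3 and 26.7 RPKM in Psat1 cKO. Tead4 (Entrez 21679, chromosome 6, 128227143 to 128300813), known in myoblasts as a gene bound by MyoD, read 13.8, 15.8 and 14.5 RPKM in Ctrl and 15.4, 14.8 and 13.0 RPKM in Psat1 cKO. For each of these 3 genes the ranges of the groups overlapped, and within its group Psat1 cKO 3 was lowest for Tead1 and Tead4 and highest for Tead2. Tead3 (Entrez 21678, chromosome 17, 28331671 to 28350805) was the least abundant, with 5.98, 5.55 and 5.56 RPKM in Ctrl and 6.11, 5.89 and 5.29 RPKM in Psat1 cKO.

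No TEAD gene passed limma's test, and 0 of the 4 had an unadjusted p under 0.05. The log2 fold changes were 0.06 for Tead1 (95% interval -0.11 to 0.22), -0.0088 for Tead2 (-0.14 to 0.12), 0.01 for Tead3 (-0.15 to 0.18) and -0.03 for Tead4 (-0.21 to 0.15), with adjusted p of 0.786, 0.962, 0.950 and 0.900. Each of these 4 values changed sign in some alternative, among them quantile normalization and median-ratio scaling for Tead2. Summed over the family there were 127 ± 2.63 RPKM in Ctrl and 127 ± 1.64 RPKM in Psat1 cKO. Tead2 supplied 61.8% ± 2.16 of that sum in Ctrl and 61.2% ± 2.87 in Psat1 cKO, Tead1 22.2% ± 1.49 and 23.0% ± 1.78, Tead4 11.6% ± 0.827 and 11.3% ± 0.849, and Tead3 4.49% ± 0.259 and 4.52% ± 0.279. Every library thus had the same order of Tead2, Tead1, Tead4 and Tead3. The TEAD genes are paralogs, and how reads shared between them were counted is not given in the sources used here.

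**Figure D2:**
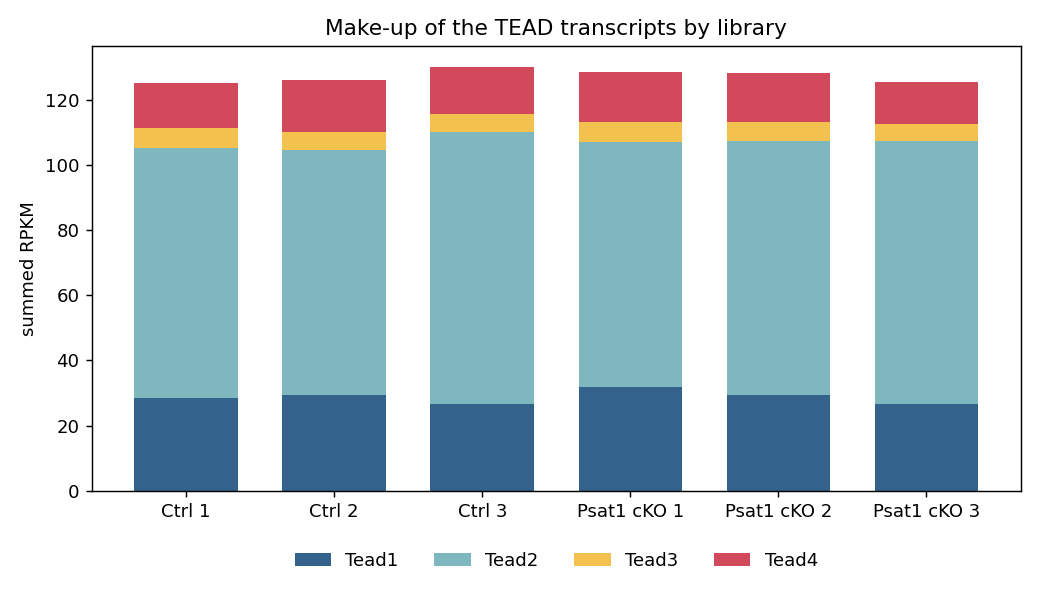
Stacked RPKM of Tead1, Tead2, Tead3 and Tead4 in each of the 6 libraries. The summed height runs from 125.07 to 129.98 RPKM, and Tead2 is the largest block in all 6 bars.

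The promoters of target genes are shown because they carry the element by which TEAD factors are known to bind. The 250 bases upstream of the annotated start, from RefSeq (GRCm38.p6), were searched for the TEAD core GGAATG and its reverse complement CATTCC, which do not overlap each other, and matches are in capitals. A promoter sequence was matched for 7 of the 10 genes (10 windows, since some genes have several starts). None was available for Ccn2, Tead1 or Tead4, so these genes were not searched. An annotated start can lie inside the span given for its gene, as it does for Amotl2, whose window is upstream of an internal start. Each sequence below is written 5′ to 3′ on the strand of the gene.
Ankrd1 (chr19:36119845-36120094, minus strand): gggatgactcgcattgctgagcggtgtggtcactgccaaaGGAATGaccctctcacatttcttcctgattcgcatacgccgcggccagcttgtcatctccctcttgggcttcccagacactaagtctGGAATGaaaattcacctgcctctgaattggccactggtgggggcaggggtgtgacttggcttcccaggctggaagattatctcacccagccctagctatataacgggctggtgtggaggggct
Ccn1 (chr3:145649986-145650235, minus strand): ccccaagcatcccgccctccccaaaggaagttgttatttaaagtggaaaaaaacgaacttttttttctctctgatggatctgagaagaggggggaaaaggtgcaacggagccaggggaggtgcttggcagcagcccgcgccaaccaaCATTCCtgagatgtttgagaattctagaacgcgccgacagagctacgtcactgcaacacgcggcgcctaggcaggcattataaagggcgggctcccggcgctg
Amotl2 (chr9:102717554-102717803, plus strand): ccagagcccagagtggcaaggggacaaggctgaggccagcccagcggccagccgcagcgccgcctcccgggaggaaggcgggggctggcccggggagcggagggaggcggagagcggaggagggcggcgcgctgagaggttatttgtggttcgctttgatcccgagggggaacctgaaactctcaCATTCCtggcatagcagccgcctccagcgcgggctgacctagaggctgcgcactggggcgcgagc

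The Ankrd1 window held the core at 2 places, beginning 210 and 123 bases before the start and reading in the direction of the gene. The windows of Ccn1 and Amotl2 each held 1 match, in the opposite direction, beginning 103 and 65 bases before the start. The genes of the factors themselves were similar in this respect, with a match in the windows of Yap1 and Wwtr1 and in 2 of the 3 windows of Tead3, and none of these letters in that of Tead2. To set the sites side by side, each is written so that the core reads GGAATG, with 8 bases on either side.
Ankrd1, distal: ctgccaaaGGAATGaccctctc
Ankrd1, proximal: ctaagtctGGAATGaaaattca
Ccn1: acatctcaGGAATGttggttgg
Amotl2: ctatgccaGGAATGtgagagtt
Yap1: agtctgcaGGAATGtagcgacg
Wwtr1: aactcaaaGGAATGcagatagg
Tead3, upstream start: acgagcgaGGAATGgggtgcgc
Tead3, next start, distal: gaatgtacGGAATGagcccggc
Tead3, next start, proximal: ggatggccGGAATGtacggaat
In all, 6 of the 7 genes with a window had at least 1 match, as had 12.7% of the 9681 tested genes with a window. The genes were chosen as known factors and targets of this pathway, so the share is a description of that choice. A match is not evidence of binding in these cells.

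Of the 4 target genes, 3 did not pass limma's test, namely Ankrd1, Amotl2 and Ccn1, at 97.3%, 95.6% and 113% of their control means. Ankrd1 (Entrez 107765, chromosome 19, 36111965 to 36119844) encodes a muscle ankyrin repeat protein of the sarcomere and nucleus and was the most abundant of the 10 genes, with a higher mean level than 99.2% of all genes tested. It read 614, 585 and 639 RPKM in Ctrl and 579, 581 and 627 RPKM in Psat1 cKO. Replicate 3 was the highest of each group. Psat1 cKO 1 and 2 lay just below every control, and Psat1 cKO 3 lay within the control range. The log2 fold change came to -0.04 ± 0.07 (SE) with a 95% interval from -0.19 to 0.11 (adjusted p = 0.837). Amotl2 (Entrez 56332, chromosome 9, 102717091 to 102733418) encodes an angiomotin family protein that binds YAP and restrains it, and so forms a feedback loop. It read 58.5, 57.6 and 66.4 RPKM in Ctrl and 61.4, 60.6 and 52.4 RPKM in Psat1 cKO, where replicate 3 was the highest control and the lowest of the other group. The log2 fold change was -0.07 with an interval from -0.25 to 0.12 (adjusted p = 0.768).

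Ccn1 and Ccn2 encode related secreted proteins that bind integrins and matrix, and each is known as a direct YAP-TEAD target. Ccn1 (Entrez 16007, chromosome 3, 145646971 to 145649985) read 110, 115 and 130 RPKM in Ctrl and 128, 142 and 132 RPKM in Psat1 cKO. Ctrl 3 lay above Psat1 cKO 1, so the groups overlapped. The difference on the log2 scale, 0.18 ± 0.07 (SE) with an interval from 0.01 to 0.35, did not pass after adjustment (adjusted p = 0.308). Ccn2 (Entrez 14219, chromosome 10, 24595442 to 24598683) read 34.5, 22.9 and 41.8 RPKM in Ctrl and 67.4, 95.4 and 76.2 RPKM in Psat1 cKO. Ctrl 2 was the lowest and Psat1 cKO 2 the highest, and the gap between the highest control and the lowest Psat1 cKO library exceeded the spread of the controls. Ccn2 rose from 33.1 ± 9.50 to 79.7 ± 14.3 RPKM, or by 1.28 ± 0.21 (SE) on the log2 scale with a 95% interval from 0.79 to 1.78 (adjusted p = 0.0259). By p it was number 170 and by log2 fold change number 58 of the genes tested. In the authors' deposited table the entry for Ccn2 was a 2.46-fold increase with q = 0.0626.

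**Figure D3:**
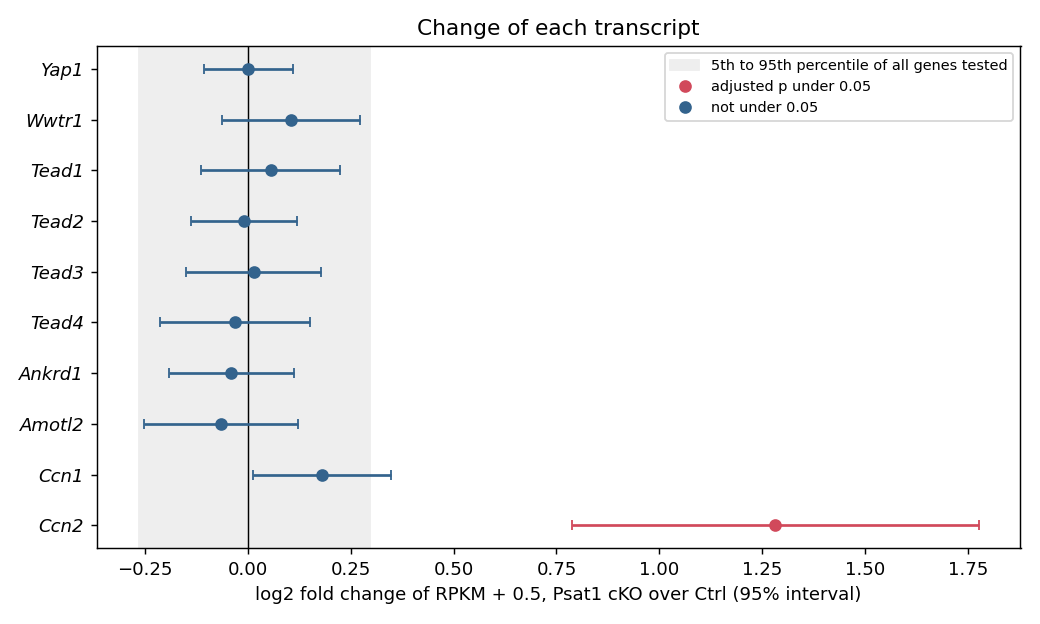
Log2 fold change of each gene with its 95% interval; the grey band spans the 5th to the 95th percentile of all genes tested. Ccn2, at 1.28, lies outside the band, and the points of the other 9 genes lie inside it.

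Set against the other targets, whose own means were 95.6% to 113% of control, Ccn2 had the following ratios, which mainly restate its rise. The ratio of Ccn2 to Ccn1 was 0.313, 0.199 and 0.322 in Ctrl and 0.525, 0.671 and 0.576 in Psat1 cKO. The ratio of Ccn2 to Ankrd1 went from 0.0537 ± 0.0133 to 0.134 ± 0.0263, and that of Ccn2 to Amotl2 from 0.539 ± 0.123 to 1.38 ± 0.248. For all 3 ratios the groups did not overlap. Ccn2, number 6 of the 10 genes by mean level in Ctrl, was number 3 in Psat1 cKO.

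The call for Ccn2 held in 3 of the 6 fits with 1 library left out, each of which had 1 sample fewer. Its log2 fold change stayed positive in all 6. Leaving out 1 library gave log2 fold changes between 1.04 and 1.47, and the adjusted p was 0.0688 without Ctrl 1, 0.0851 without Psat1 cKO 2 and 0.0734 without Psat1 cKO 3, against 0.0483 at most without any of the others. Without the filter on low values, with more genes to adjust over, the adjusted p was 0.147 at the same log2 fold change. Adding sex, as told by Xist and Y-linked transcripts, to the fit gave 1.24 on the log2 scale and an adjusted p of 0.0585. Within the libraries with Xist the difference was 1.20 (Ctrl 1 against Psat1 cKO 1 and 2) and within the other 3 libraries 1.28 (Psat1 cKO 3 against Ctrl 2 and 3), with 1 library in an arm each and no test.

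**Figure D4:**
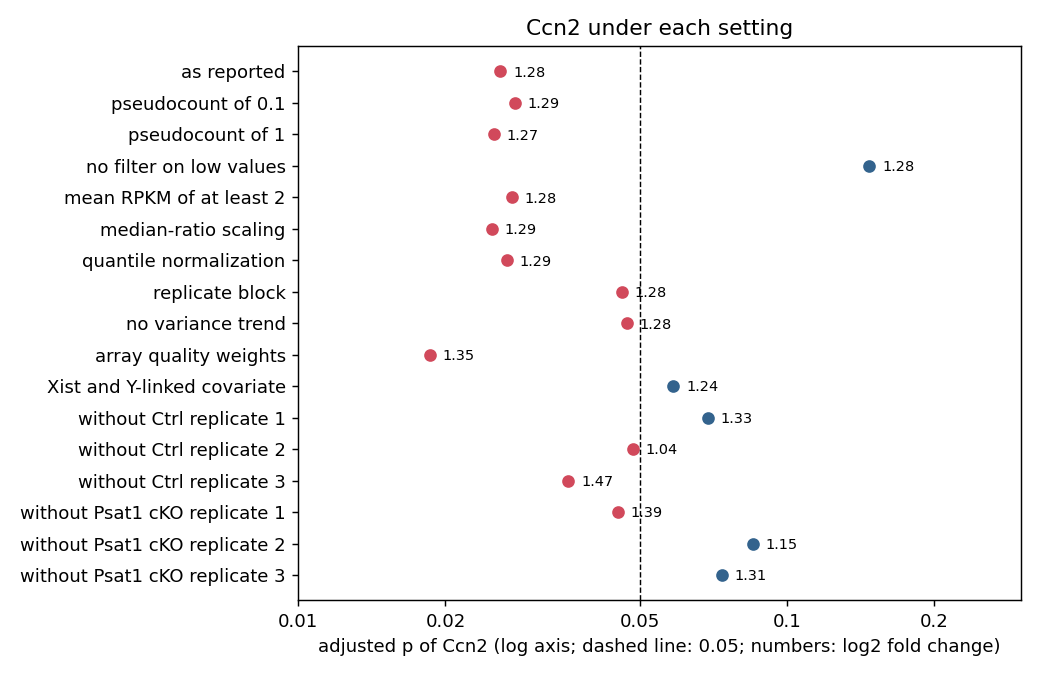
Adjusted p of Ccn2 (log axis) as reported and under each of the 16 alternatives, with the log2 fold change printed beside each point and the dashed line at 0.05. Red points pass, and 11 of the 16 alternatives do; the log2 fold change stays between 1.04 and 1.47 in all of them.

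Markers of other cells moved in the same libraries. In these bulk samples a larger number of cells of a type and more RNA per cell cannot be told apart. Of 9 tested markers of fibro-adipogenic progenitors, the stromal cells of muscle that are known to express Ccn2, 4 rose and 0 fell (1.8% and 0.49% over all genes). The 4 were Pdgfra, Cd34, Smoc2 and Mfap5. The summed level of the 14 listed genes was 95.9 to 102 RPKM in Ctrl and 118 to 131 RPKM in Psat1 cKO. Within that sum Cd34 stood at 6.13 ± 1.24 and 16.6 ± 4.45 RPKM and Gsn at 31.0 ± 4.37 and 39.7 ± 6.87 RPKM. Pdgfra, the receptor used to sort these cells, read 0.510, 0.326 and 0.376 RPKM in Ctrl and 1.63, 2.87 and 2.71 RPKM in Psat1 cKO. The most abundant gene of the list, Col3a1, stood at 41.0 ± 1.78 and 39.0 ± 3.65 RPKM (log2 fold change -0.08), and Tcf4 (-0.08), Ly6a (0.16) and Gsn (0.35) also had overlapping groups. Tcf4 is the gene of that symbol, not Tcf7l2, which encodes the stromal marker known as TCF4. It is counted among the 9 tested and, at 16.0 and 15.2 RPKM, in the sum. The list median of 1.16 was 0.35 with the filter at 2 RPKM and 0.86 without Psat1 cKO 3. Pdgfra was called in all 6 fits that dropped a library, Cd34 in 5, Smoc2 in 2 and Mfap5 in 1. Lum, Dpt and Pi16, further markers of these cells, were at no more than 0.123, 0.0299 and 0.0126 RPKM in any library. Of 8 tested smooth muscle and pericyte markers 2 rose, Mcam and Tagln, and 0 fell (1.8% and 0.49% over all genes). The call of Mcam was lost without Psat1 cKO 2 (adjusted p = 0.0517). Abcc9 (-0.34), Rgs5 (0.10), Notch3 (0.02) and Acta2 (0.14) had overlapping groups, though 7 of the 8 log2 fold changes were above 0. The sum over the 12 listed genes was 191 to 341 RPKM in Ctrl and 293 to 384 RPKM in Psat1 cKO. Kcnj8, Cnn1 and Myh11 were below the filter, and Higd1b was at 0 in all libraries. Of 4 tested endothelial markers 0 passed in limma (1 higher at an unadjusted p under 0.05, beside 926 of all 12251 genes). The sum over the 9 listed was 4.71 to 7.09 RPKM in Ctrl and 6.55, 7.74 and 14.01 RPKM in Psat1 cKO 1 to 3. Emcn alone read 6.68 RPKM in Psat1 cKO 3, against 1.05 and 1.58 RPKM in Psat1 cKO 1 and 2. The markers with the smallest p that did not pass were Pdgfrb among the pericyte markers (log2 fold change 1.25, adjusted p = 0.0845) and Cdh5 among the endothelial ones (0.80, adjusted p = 0.0845, and 0.0287 without Ctrl 1). The part of these cells in the rise of Ccn2 was not tested. Of 7 tested myoblast markers, Pax7 and Myf5 fell (0.49% over all genes), while Myod1, Des, Cdh15, Itga7 and Vcam1 did not pass. All 7 had log2 fold changes below 0. The sum over the 8 listed was 1328 to 1488 RPKM in Ctrl and 1120 to 1265 RPKM in Psat1 cKO. Cre sat at a Pax7 allele in the Psat1 cKO group alone, so its effect on these markers cannot be told apart from that of targeting Psat1. Of 12 differentiation markers, all with negative log2 fold changes, 0 passed in limma (median -0.41). Summed, they stood at 5102 to 6056 RPKM in Ctrl and 3433 to 4977 RPKM in Psat1 cKO. At an unadjusted p under 0.05 from limma, 7 were lower, beside 836 of all 12251 genes. Ckm, muscle creatine kinase, was nonetheless called lower without Psat1 cKO 1 (adjusted p = 0.0130). The call was lost for Myf5 without Ctrl 2 or Psat1 cKO 2 and held for Pax7 in all 6 such fits.

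In Ctrl the order of the 10 genes by mean RPKM was Ankrd1, Ccn1, Tead2, Amotl2, Yap1, Ccn2, Wwtr1, Tead1, Tead4 and Tead3. Of the neighbours in that order, Yap1 and Ccn2, Ccn2 and Wwtr1, and Wwtr1 and Tead1 had overlapping ranges. In Psat1 cKO Ccn2 stood between Ccn1 and Tead2, and the overlapping neighbours were Ccn2 and Tead2, and Wwtr1 and Tead1. The replicates also spread unequally: the pooled SD of Ccn2 within the groups, 0.36 on the log2 scale, was larger than that of 97.3% of genes tested, while that of Yap1, 0.04, was larger than that of 8.41%.

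The genes most like each target across the 6 libraries were found by Pearson's r of log2 values among 7996 named genes of at least 5 RPKM on average. Among those for Ccn2 were Bgn (r = 0.996), Mcfd2 (0.996), Cald1 (0.994) and Jade1 (0.993). Bgn encodes the matrix proteoglycan biglycan. It read 23.6, 10.1 and 26.0 RPKM in Ctrl and 76.4, 151 and 92.3 RPKM in Psat1 cKO, and followed Ccn2 also within the groups, with the order Ctrl 2, Ctrl 1, Ctrl 3 and then Psat1 cKO 1, 3 and 2. The closest to Ccn1 was Tagln2 (0.993), followed by Npepl1, Rhoa, Pdia3 and Rad23b. Rhoa encodes the small GTPase that is known to favour nuclear YAP, and read 132, 131 and 142 RPKM in Ctrl and 142, 151 and 143 RPKM in Psat1 cKO. Those closest to Ankrd1 were Haus4, Psmd8, Nme4, Park7 and Bex3 (r between 0.977 and 0.995), and to Amotl2 Faap20, Pias1, Tm9sf1, Atp6v1b2 and Zfp212 (between 0.9904 and 0.995). With 6 points and so many genes searched, such values describe a shared profile of these libraries, including any shared difference between the groups.

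None of the 27 tested Hippo kinases and upstream regulators passed limma's test in either direction, and their median log2 fold change was -0.012, like that of all genes. At an unadjusted p under 0.05 from limma, 0 were higher and 3 lower, beside 926 and 836 of all 12251 genes. The core kinases were close to their control levels: Stk4 (MST1) stood at 9.45 ± 0.167 and 9.44 ± 0.195 RPKM in Ctrl and Psat1 cKO, Stk3 (MST2) at 11.6 ± 0.821 and 13.0 ± 1.08, Lats1 at 10.9 ± 0.716 and 11.2 ± 0.702 and Lats2 at 25.45 ± 0.778 and 26.6 ± 1.57 RPKM. Nf2, for the membrane scaffold merlin, stood at 20.3 ± 0.256 and 20.4 ± 0.728 RPKM. The members with the smallest p all had lower values in Psat1 cKO. Fat4 and Dchs1 encode giant cadherins that bind each other between cells, at log2 fold changes of -0.43 (adjusted p = 0.129) and -0.50 (adjusted p = 0.265). Both were scarce, at 1.71, 1.46 and 1.34 against 1.13, 0.994 and 0.841 RPKM for Fat4, and at 2.24, 3.70 and 2.44 against 1.71, 2.235 and 1.49 RPKM for Dchs1, with groups that did not overlap, although Ctrl 1 and Psat1 cKO 2 nearly met for Dchs1. Wtip, for an Ajuba family protein that binds LATS, was at -0.21 (adjusted p = 0.229). Groups without overlap were found for 4 of the 27 genes, beside 20.5% of all genes tested.

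The Vestigial-like proteins compete with YAP and TAZ for TEAD factors. Of the 3 tested none passed limma's test, and 0 had an unadjusted p under 0.05. Vgll2, which is known in skeletal muscle, ranged from 14.3 to 22.8 RPKM in Ctrl and from 17.6 to 25.8 RPKM in Psat1 cKO (0.23 on the log2 scale, adjusted p = 0.652). Vgll3 was at -0.14 (adjusted p = 0.431) and Vgll4, a repressor of TEAD-dependent transcription, at -0.05 (adjusted p = 0.814). Vgll1 was below the filter, at no more than 0.0258 RPKM.

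Among 17 tested genes of a further list of YAP/TAZ targets drawn from human cancer, 2 rose and 1 fell (1.8% and 0.49% over all genes), and the median log2 fold change was 0.20. That median was 0.084 with the filter at 2 RPKM, 0.096 without Psat1 cKO 1 and 0.13 without Ctrl 3. F3, which encodes the coagulation initiator tissue factor, read 1.03, 0.540 and 0.936 RPKM in Ctrl and 2.28, 2.04 and 2.23 RPKM in Psat1 cKO. Its log2 fold change came to 1.03 ± 0.15 (SE) (adjusted p = 0.0164). Fjx1, for a secreted relative of the fly kinase Four-jointed, read 1.43, 1.01 and 0.972 RPKM in Ctrl and 2.40, 2.79 and 2.67 RPKM in Psat1 cKO, a difference of 0.94 ± 0.12 (SE) on the log2 scale (adjusted p = 0.0138). For both genes each Psat1 cKO library exceeded each control, at low levels. Gadd45a, a stress-response gene that p53 also controls, fell from 115 ± 5.96 to 90.4 ± 6.37 RPKM (log2 fold change -0.34, adjusted p = 0.0452).

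Those 3 calls differed in how they held when 1 library was left out. The call was lost for F3 without Psat1 cKO 1, 2 or 3 (adjusted p = 0.0521, 0.0575 and 0.0578), for Fjx1 without Ctrl 2 or Psat1 cKO 2 (adjusted p = 0.0551 and 0.0543), and for Gadd45a in all 6 fits (adjusted p from 0.0779 to 0.172). Gadd45a was also lost with quantile normalization (0.0619), without the variance trend (0.0771) and with sex as a term (0.0812). Among the list's other members Axl, a receptor tyrosine kinase, stood at 132 ± 2.21 and 152 ± 5.85 RPKM (log2 fold change 0.20, adjusted p = 0.0980), Dock5 was at 0.62 (adjusted p = 0.0703) and Igfbp3, at 109 and 110 RPKM, at a log2 fold change of -0.0058. Groups did not overlap, with Psat1 cKO higher, for 6 of the 17 genes, beside 10% of all genes. Of the 12 genes of the list with a RefSeq promoter window, 3 held the TEAD core in it, namely Axl, Crim1 and Ptpn14. The share over the 9681 tested genes with a window was 12.7%. The 12 include Nt5e, which was below the filter. Among the called genes, the windows of F3 and Gadd45a held no match, and Fjx1 had no window.

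**Figure D5:**
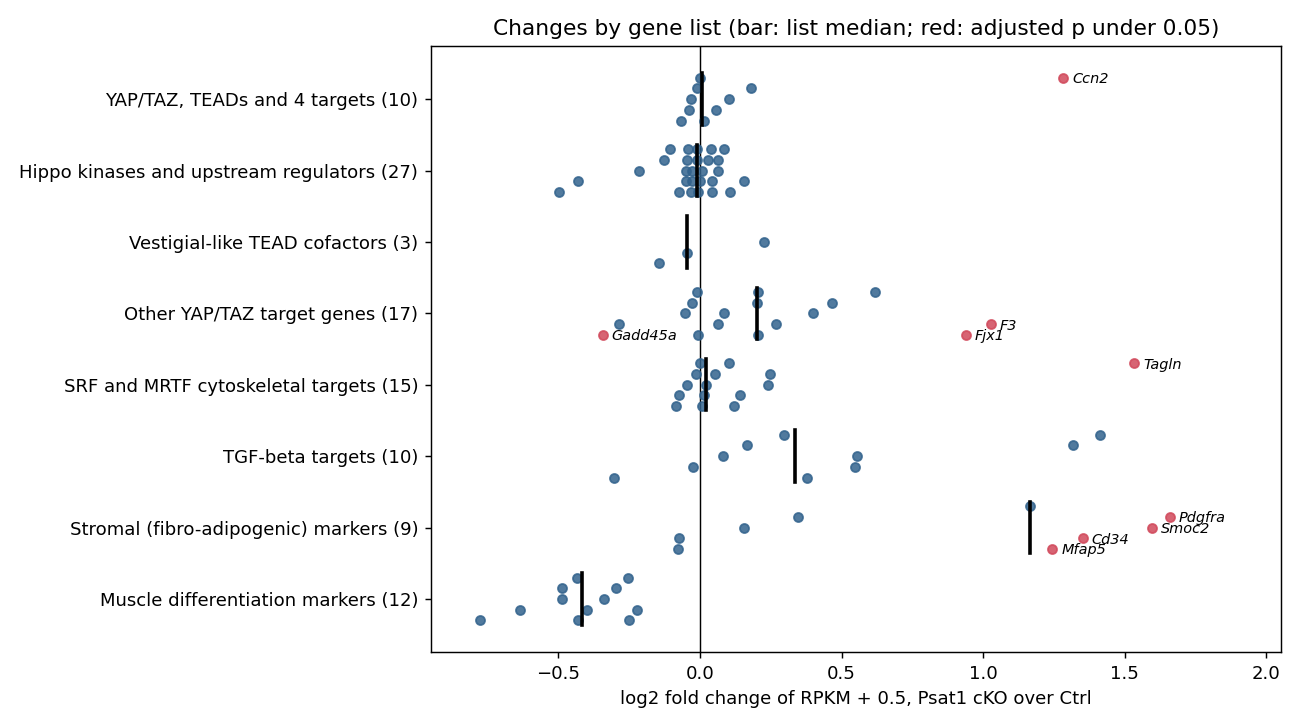
Log2 fold changes of the tested genes of each list, 1 point a gene, with the number tested in brackets, a bar at the list median and named red points where the adjusted p was under 0.05. Ccn2 at 1.28 stands apart from the other 9 YAP/TAZ, TEAD and target genes, the Hippo genes spread from -0.50 to 0.16, and the medians of the TGF-beta and stromal lists lie at 0.34 and 1.16, the latter 0.35 with the filter at 2 RPKM.

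Ccn2 is also known as a target of TGF-beta and, with Ccn1, of serum response factor and its MRTF coactivators, so those lists are given beside it. Of the 10 other TGF-beta pathway genes tested and reported here, 0 passed limma's test, with a median log2 fold change of 0.34 and 8 of 10 above 0. At an unadjusted p under 0.05 from limma, 5 were higher and 1 lower, beside 926 and 836 of all 12251 genes. Ltbp2, of the latent TGF-beta binding protein family, read 1.14, 0.771 and 1.72 RPKM in Ctrl and 3.29, 5.47 and 2.67 RPKM in Psat1 cKO (1.32 on the log2 scale, adjusted p = 0.0516). Tgfb1, the ligand, was at 0.38 (adjusted p = 0.0523, and 0.0264 without Psat1 cKO 1) and Smad7, for the inhibitory SMAD of the pathway, at 0.30 (adjusted p = 0.0855), and in all 3 genes the groups did not overlap. Pmepa1 went the other way, from 44.2 ± 1.37 to 35.9 ± 4.27 RPKM (-0.30, adjusted p = 0.140), also with no overlap. Skil (0.08) and Ski (-0.03) had overlapping groups. Groups without overlap were found for 5 of the 10 genes with Psat1 cKO higher and for 1 with it lower, beside 10% and 10.5% of all genes. Of 15 tested cytoskeletal targets of SRF and MRTF 1 rose (1.8% over all genes), with a median of 0.02. This was Tagln, for the actin-binding protein transgelin, which is also on the smooth muscle list. It went from 33.7 ± 12.3 to 94.9 ± 20.6 RPKM (log2 fold change 1.53, adjusted p = 0.0378), and its call was lost without Ctrl 3 or any Psat1 cKO library (adjusted p up to 0.121), without the variance trend (0.0632) and with sex as a term (0.0751). Acta2, of the same list, was at 198 ± 65.4 and 214 ± 37.3 RPKM with overlapping groups (adjusted p = 0.828), and Filip1l and Cnn2 were at 0.24 and 0.25 (adjusted p = 0.130 and 0.295).

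None of the 3 tested CCN and ankyrin repeat relatives of the target genes passed limma's test, and 0 had an unadjusted p under 0.05. Ccn4, the other CCN gene above the filter, stood at 34.7 ± 4.37 RPKM in Ctrl and 29.2 ± 5.13 RPKM in Psat1 cKO, at -0.25 on the log2 scale (adjusted p = 0.449). Ccn3, Ccn5 and Ccn6 were below the filter, at no more than 0.648, 0.404 and 0.0418 RPKM. Ankrd2 and Ankrd23, the muscle ankyrin repeat genes related to Ankrd1, had log2 fold changes of -0.33 (adjusted p = 0.379) and -0.12 (adjusted p = 0.837). The angiomotin genes Amot and Amotl1 were at -0.10 and -0.13 (adjusted p = 0.767 and 0.649).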

How the data were processed

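The labels' protocols give Trizol extraction and the NEBNext Ultra II kit with 500 ng of RNA. Per the submitters' processing notes, Trim Galore 0.6.6, TopHat2 2.1.1, Partek and mm10 were used; their roles are not stated, and the sources used here name no annotation or counting method. RPKM values were deposited by the authors for 25220 genes. Per the file headers, a second deposited table holds group means on the log2 scale (log2 of RPKM + 0.001) with p-values, q-values, a ratio and a fold change. Single-exon genes of GENCODE M21 served to estimate depth: 41.2% to 47.8% of low values were within 1% of whole reads, too few for a count test, and 3 reads in 1 kb equal 0.0697 to 0.153 RPKM (counting error only). The 12251 genes whose mean RPKM reached 0.5 entered limma 3.58.1 (R 4.3.3; variance trend, genotype as the term, Benjamini-Hochberg adjustment) on log2 of RPKM + 0.5, a scale that understates changes of low genes; the test was checked on simulated data. The members and gene lists were chosen with earlier results of these data known. Named genes were all 10 members, Psat1, the called and the 3 smallest-p genes of each list, and the 5 genes most like each target; any other gene was named with its values already known. An item among the listed and most alike genes is not reported here and was left out of the list counts. Alternatives were pseudocounts of 0.1 and 1, no filter, a filter at 2 RPKM, array quality weights, no variance trend, quantile normalization, median-ratio scaling, sex (Xist or Y-linked transcripts) as a term, a replicate block, and each library left out. Positions and promoters are from RefSeq for GRCm38.p6, a patch release of the assembly called mm10. Python 3.11.15 and pandas 2.3.3 served for tables.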

Additional observations from a re-analysis of the deposited data

How the results depend on the processing

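Without the filter (20767 genes tested) 1 gene was higher, 3 were lower and 0 of the 10 members were called; 0 were also called with the Xist and Y-linked term. Leaving out 1 library gave 49 to 173 higher genes, 12 to 55 lower genes and 0 to 1 members called higher, namely 54 and 12 genes when Ctrl 2 was removed, 49 and 12 for Psat1 cKO 2, 122 and 37 for Ctrl 3, 106 and 35 for Psat1 cKO 3, and 29 lower genes for Ctrl 1; each such fit has 1 sample fewer. No member was called lower under any of the 16 alternatives. The replicate numbers are not said to pair the samples. Deviations of same-numbered libraries correlated at 0.20, -0.03 and 0.17, and those of differently numbered libraries at -0.21 to 0.067. Partial pairing was therefore not excluded. With the replicate number as a block 200 genes were higher and 121 lower, and Ccn2 had an adjusted p of 0.0459. The block also ended the calls of Tagln (0.0638) and Mfap5 (0.0780) and added Tnnt3 (0.0247) and Ckm (0.0373) as lower. Leaving off the filter ended the calls of Psat1, Ccn2, Fjx1, F3, Gadd45a, Tagln, Pax7, Myf5, Pdgfra, Cd34, Smoc2, Mfap5 and Mcam (adjusted p from 0.0744 to 0.193). The sex term also ended those of Psat1 (0.0532), Smoc2 (0.0515) and Mfap5 (0.0513), and array weights added Ltbp2 (0.02001), Tgfb1 (0.0481) and Pdgfrb (0.0392).

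Signs turned only for log2 fold changes that had not passed: for Yap1 with array weights (-0.0028) and the Xist term (-0.0048), for Tead2 with median-ratio scaling (0.000945), quantile normalization (0.00094) and the Xist term (0.011), for Tead3 with the Xist term (-0.030), and with array weights for Tead4 (0.012) and Amotl2 (0.00036). Leaving out 1 library gave ranges of -0.025 to 0.026 for Yap1, -0.0071 to 0.12 for Tead1, -0.038 to 0.035 for Tead2, -0.026 to 0.070 for Tead3, -0.079 to 0.039 for Tead4, -0.11 to 0.0064 for Amotl2, -0.10 to 0.00031 for Vgll4, -0.30 to 0.028 for Ankrd23 and -0.24 to 0.87 for Emcn. The cause was not tested. At the estimated depths all 10 members lay above the level of 3 reads in 1 kb in every library.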
